A study of Mus musculus with 4 samples.

Results

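Polycomb repressive complex 2 (PRC2) was examined as 10 transcripts in TT2 mouse embryonic stem cells after depletion of hnRNP K. The 10 genes were chosen by name, as the core and accessory subunits Ezh1, Ezh2, Suz12, Eed, Jarid2, Mtf2, Phf1, Phf19, Rbbp4 and Rbbp7, and all 10 were found among the 22138 genes of the table. TT2 is a stem cell line from a C57BL/6xCBA embryo, labelled female, grown here without feeder cells in serum with LIF. One group received control siRNA (n = 2) and the other siRNA against Hnrnpk (n = 2). Both groups had the same schedule, 100 nM siRNA followed 24 hours later by 50 nM, with RNA taken about 72 hours after the second dose; the series' design text counts the time as 72 h from transfection. That text calls the samples biological replicates. On the RNA the labels differ, naming removal of ribosomal RNA in one field and poly(A) selection in another.

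PRC2 places methyl groups on lysine K27 of histone H3, a mark of silenced developmental genes. EZH2 or its paralog EZH1 is the catalytic subunit, and it is active only in a complex with SUZ12 and EED. RBBP4 or RBBP7, WD-repeat proteins that bind histones, complete the core. Accessory subunits divide the complex into a form with a Polycomb-like protein (PHF1, MTF2 or PHF19) and a form with JARID2 and AEBP2. In embryonic stem cells PRC2 keeps lineage regulators low, and the cells can self-renew without it but differentiate poorly.

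The values are RPKM, reads scaled to gene length and library size, so levels of different genes can be set side by side. The table listed 17566 to 18077 genes above 0 per library. With GENCODE exon lengths, the steps between its low values gave an estimated depth of 124.2 and 121.9 (control) and 110.7 and 109.5 (Hnrnpk siRNA) in megareads, a read here being a read or a read pair. The targeted gene stood at 236 and 226 RPKM after control siRNA and at 68.0 and 70.5 RPKM after Hnrnpk siRNA. All 10 pluripotency markers on the list stood at 71.3 RPKM or more in every library, and the 8 fibroblast markers summed to 9.66 and 8.17 RPKM in control and 4.92 and 5.28 RPKM in Hnrnpk siRNA libraries. Of these 8, Postn, Lum, Dcn, Col3a1 and Col1a2 were all below 0.1 RPKM in every library. Thy1 had 6.90 and 5.20 RPKM in control and 2.22 and 2.28 RPKM in Hnrnpk siRNA libraries, Col1a1 had 2.46 and 2.68, then 1.73 and 1.86 RPKM, and Pdgfra was higher after Hnrnpk siRNA, at 0.191 and 0.148, then 0.835 and 0.961 RPKM.

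The subunits did not move as a block. Of the 10 members, 5 rose (Suz12, Eed, Rbbp4, Rbbp7 and Phf1), 3 fell (Ezh1, Ezh2 and Phf19), and Jarid2 and Mtf2 were not called. A gene was called when limma gave it an adjusted p (Benjamini-Hochberg) below 0.05 among 12486 genes averaging 0.5 RPKM or more, and all 10 members passed that filter in both groups. The background was high: 67.2% of all genes tested were called, 32.2% higher and 35.0% lower, so 8 of 10 is close to the rate of the table. The groups did not overlap for 9 of the 10 members, 6 higher and 3 lower, against 84.7% of all genes tested (41.2% higher, 43.5% lower). The median log2 change of the members was 0.16, beside -0.015 for all genes tested, and their median size of change was 0.282 against 0.321. Only Phf1 moved by 1 or more on the log2 scale, as 4.0% of all genes tested did upward and 4.52% downward. For 1 gene alone, 2 against 2 libraries allow an exact permutation p of 0.333 at the smallest, so the calls depend on limma borrowing variance from other genes. RNA came from whole cultures, so fewer expressing cells and less RNA per cell cannot be told apart.

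**Figure D1:**
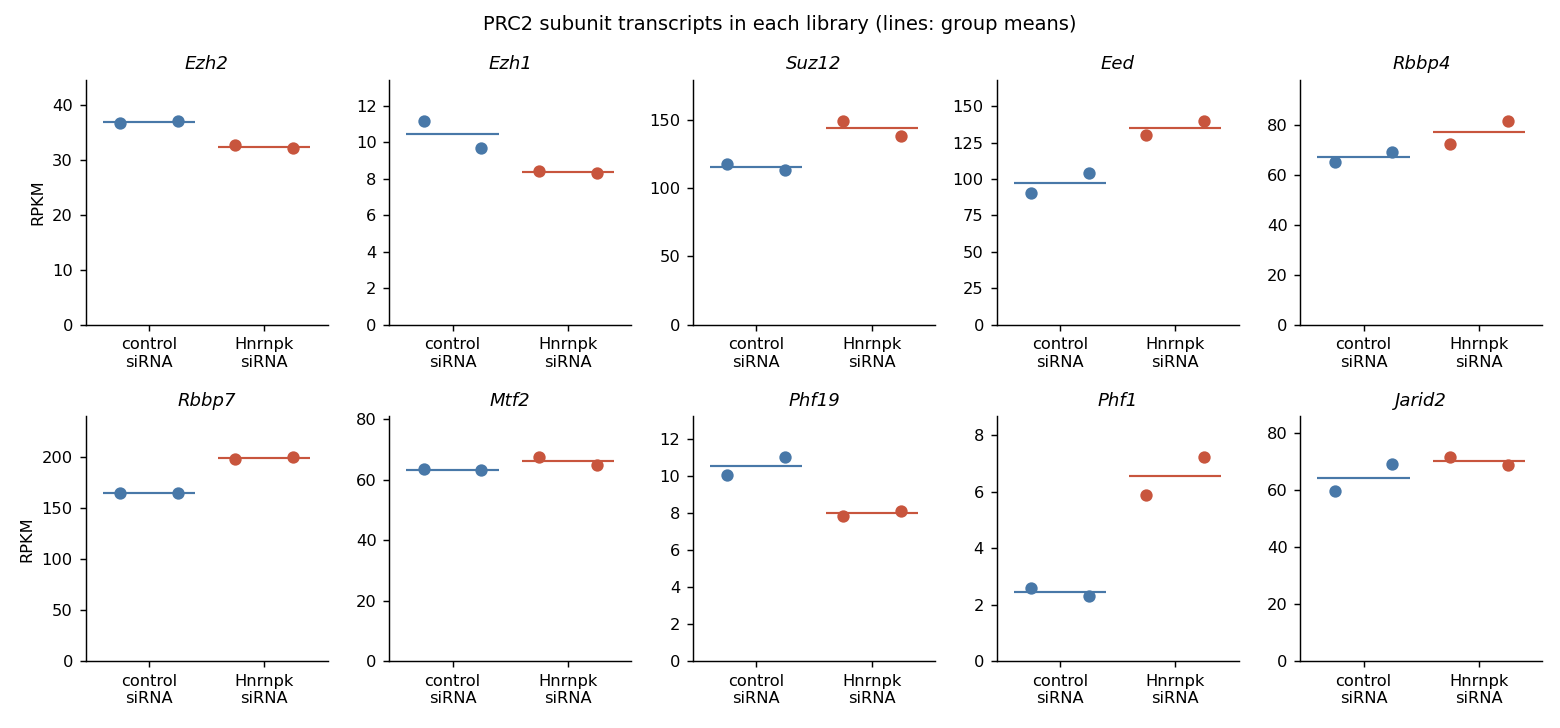
RPKM of the 10 PRC2 members in each library, one panel per gene with its own vertical axis starting at 0. Points are libraries (blue, control siRNA, n = 2; red, Hnrnpk siRNA, n = 2) and lines are group means; Phf1 goes from 2.46 to 6.54 RPKM, and Jarid2 is the one gene whose groups overlap.

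Both catalytic subunits were slightly lower after Hnrnpk siRNA. Ezh2 (ENSMUSG00000029687; GRCm38 chromosome 6, 47530139 to 47595341, minus strand), the main H3K27 methyltransferase of dividing cells, had 36.7 and 37.2 RPKM in the control libraries and 32.7 and 32.2 RPKM after knockdown. Its 2 groups were separate and tight, with means of 37.0 ± 0.367 and 32.5 ± 0.331 RPKM (SD, n = 2 each). This is a log2 change of -0.18 (SE 0.0605), with a limma adjusted p of 0.0216. The Ezh2 call was lost when control replicate 2 was left out (-0.17, adjusted p = 0.0595), likewise Hnrnpk siRNA replicate 1 (-0.19, adjusted p = 0.0686) and replicate 2 (-0.17, adjusted p = 0.0995), and with length trends removed (-0.13, adjusted p = 0.0554). A fall at least as large was seen in 36.0% of all genes tested.

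Ezh1 (ENSMUSG00000006920; chromosome 11, 101191115 to 101226463, minus strand), the paralog with weaker methyltransferase activity that predominates in resting cells, was lower than Ezh2 in every library. It had 11.2 and 9.71 RPKM after control siRNA and 8.43 and 8.34 RPKM after Hnrnpk siRNA. Both Hnrnpk siRNA libraries lay below both controls, with group means of 10.4 ± 1.02 and 8.38 ± 0.0687 RPKM (SD, n = 2 each). The log2 change was -0.30, with SE 0.0824 and a limma adjusted p of 0.00985. The Ezh1 call was lost without Hnrnpk siRNA replicate 2 (adjusted p = 0.0575) and when no low genes were removed (adjusted p = 0.0965). Ezh1 made up 23.3% and 20.7% of the summed Ezh1 and Ezh2 RPKM in control libraries and 20.5% and 20.6% in Hnrnpk siRNA libraries. The balance of the paralogs thus moved little, and the summed level went from 47.8 and 46.9 to 41.1 and 40.6 RPKM.

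The core subunits Suz12 and Eed, which are not catalytic, went the other way. Suz12 (ENSMUSG00000017548; chromosome 11, 79993106 to 80034123, plus strand), the scaffold on which the core and the accessory subunits assemble, had 118 and 113 RPKM in control and 149.5 and 138 RPKM after knockdown. The Hnrnpk siRNA libraries were both higher, with group means of 115 ± 3.69 and 144 ± 7.87 RPKM (SD, n = 2 each), which limma put at a log2 change of 0.32 ± 0.0671 (SE; adjusted p = 0.00216). Eed (ENSMUSG00000030619; chromosome 7, 89954654 to 89980983, minus strand), the WD-repeat subunit that binds trimethylated H3K27 and stimulates the enzyme, had 90.2 and 104 RPKM in control and 130.1 and 140.1 RPKM in Hnrnpk siRNA libraries. The groups were apart here too, at 96.9 ± 9.48 and 135 ± 7.11 RPKM (SD, n = 2 each), which limma put at a log2 change of 0.48 ± 0.0793 (SE; adjusted p = 4.86e-04). Eed lost its call only when no low genes were removed (adjusted p = 0.0547), a setting in which 34.1% of all genes were called.

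The ratios of Suz12 and of Eed to Ezh2 were higher after knockdown. Suz12 stood at 3.21 and 3.03 times the level of Ezh2 with control siRNA and at 4.57 and 4.30 times after knockdown. For Eed over Ezh2 the ratios were 2.46 and 2.78, then 3.98 and 4.35. Neither ratio overlapped between the groups, which follows from Ezh2 being lower and Suz12 and Eed higher in both Hnrnpk siRNA libraries. Ezh2 over Ezh1 was 3.29 and 3.83, then 3.88 and 3.87, and Rbbp7 over Rbbp4 was 2.54 and 2.38, then 2.73 and 2.45, which overlapped. These are ratios of transcripts, and proteins were not measured.

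The histone-binding subunits Rbbp4 and Rbbp7 rose by small amounts. Rbbp7 (ENSMUSG00000031353; chromosome X, 162760402 to 162779092, plus strand) was the most abundant of the 10 transcripts, with 165 RPKM in both control libraries and 198 and 199.5 RPKM after knockdown. The spread within each group was far smaller than the gap between them (165 ± 0.452 and 199 ± 1.11 RPKM, SD, n = 2 each), and limma gave a log2 change of 0.27 (SE 0.0616, adjusted p = 0.00355). Quantile normalization brought its log2 change to 0.14 (adjusted p = 0.0526). Of its longest coding transcript, 49.7% is matched by other genes at 95% identity or more, chiefly the processed pseudogene Gm6382, so its level is uncertain.

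Rbbp4 (ENSMUSG00000057236; chromosome 4, 129307100 to 129335370, minus strand) had 65.1 and 69.1 RPKM after control siRNA and 72.4 and 81.6 RPKM after Hnrnpk siRNA. The Hnrnpk siRNA libraries were both higher, but lay farther from each other than the lower one lay from the nearest control (log2 change 0.20, SE 0.0737, limma adjusted p = 0.0385). This was the least stable call of the 8: it was lost in 6 of 15 alternatives, with adjusted p-values from 0.00937 to 0.273 over all of them. Without Hnrnpk siRNA replicate 2 the log2 change was 0.11 (adjusted p = 0.273). Other genes match 35.9% of its longest coding transcript, mostly Gm26722 and Sync, which lie across it on the opposite strand.

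RBBP4 and RBBP7 also serve in chromatin complexes outside PRC2, and those partners moved in both directions. Of the 14 partner genes on the list, 6 rose, 6 fell and 2 were not called, with a median log2 change of -0.05. Changes in both directions were common in the whole table, where 32.2% of genes tested were called higher and 35.0% lower. Hat1, the acetyltransferase of newly made histone H4 that works with RBBP7, rose from 178 ± 12.5 to 239 ± 0.970 RPKM (SD, 2 libraries each; log2 change 0.43). Lin9 and Lin54, subunits of the MuvB core that RBBP4 joins, rose with log2 changes of 0.42 and 0.37. Chaf1b, of the histone chaperone CAF-1, fell from 30.5 ± 3.37 to 18.3 ± 0.113 RPKM (log2 change -0.72), Mta1 of the NuRD complex from 106 ± 5.22 to 71.0 ± 1.78 RPKM (log2 change -0.58), and the scaffold Sin3a from 74.9 ± 1.66 to 55.7 ± 1.79 RPKM (SD, 2 libraries each; log2 change -0.42).

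The 3 Polycomb-like paralogs showed 3 different outcomes. These proteins bind unmethylated CpG-rich DNA through a winged-helix domain and read methylated H3K36 through a Tudor domain, and each PRC2 complex of this form holds one of them. The median number of CpG dinucleotides in the 250 bases before a RefSeq start was 6 over 32851 promoters, with an upper quartile of 16. Phf1, Mtf2 (first start) and Phf19 held 23, 23 and 31, and the second Mtf2 start held 2. High counts were not particular to them: Suz12 held 37, Rbbp7 34, Rbbp4 30, Ezh2 23, and the Jarid2 starts 23 and 22. Ezh1 held 14 and Eed 12. Because the paralogs moved differently, their window parts before the earliest GENCODE start are shown, in order Phf1 (rose), Mtf2 (not called) and Phf19 (fell). They come from RefSeq on GRCm38.p6, at chr17:26932877-26933051 (plus strand), chr5:108065424-108065673 (plus strand) and chr2:34914027-34914226 (minus strand), and capitals mark the motifs searched.
Phf1: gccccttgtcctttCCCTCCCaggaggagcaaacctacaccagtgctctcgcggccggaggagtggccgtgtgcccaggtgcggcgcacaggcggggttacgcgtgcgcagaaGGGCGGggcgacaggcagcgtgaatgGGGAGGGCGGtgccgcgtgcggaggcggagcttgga
Mtf2: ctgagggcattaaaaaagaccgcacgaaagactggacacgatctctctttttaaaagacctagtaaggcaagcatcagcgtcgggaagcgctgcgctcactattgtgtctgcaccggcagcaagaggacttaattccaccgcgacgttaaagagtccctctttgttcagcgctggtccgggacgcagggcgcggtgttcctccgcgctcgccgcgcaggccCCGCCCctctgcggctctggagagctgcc
Phf19: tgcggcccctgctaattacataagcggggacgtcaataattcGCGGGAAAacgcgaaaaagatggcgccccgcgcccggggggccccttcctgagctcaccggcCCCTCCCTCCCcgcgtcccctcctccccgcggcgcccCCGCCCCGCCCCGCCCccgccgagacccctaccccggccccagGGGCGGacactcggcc

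The motifs were searched on both strands, and matches may overlap each other: the GC box GGGCGG, the CT element CCCTCCC (a C-rich sequence of a kind that hnRNP K is known to bind), CCAAT, and the E2F-type letters TTTCCCGC and TTTGGCGC. In the stretches printed, Phf1 held 2 GC boxes and 2 CT elements, Mtf2 held 1 GC box, and Phf19 held 4 GC boxes, 2 CT elements and 1 TTTCCCGC. Suz12, which rose, also held 1 TTTCCCGC in its window, and no other member held any. Over the windows of all RefSeq promoters, 32.7% held a GC box, 19.7% a CT element, 33.8% a CCAAT, 0.9% TTTCCCGC and 0.4% TTTGGCGC. These shares refer to full windows of 250 bases, in which Phf1 held 4 GC boxes. The other counts of Phf1 and Phf19 were the same there. G and C made up 72.0% of the Phf1 window, 59.2% for Mtf2 and 75.2% for Phf19, against a median of 52.4% over all promoters. The shares were not matched for this. The CT element was present in Phf1 and in Phf19. Eed, Jarid2 and Rbbp7 also held it, and Ezh1, Ezh2, Suz12 and Rbbp4 did not. Binding of hnRNP K was not measured, and the part of this element in any of the changes was not tested.

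Phf1 (ENSMUSG00000024193; chromosome 17, 26933052 to 26937908, plus strand) had the largest change of the 10. It was the least abundant member, with 2.61 and 2.30 RPKM in the control libraries, and reached 5.87 and 7.21 RPKM after knockdown. The lower Hnrnpk siRNA library was more than 2 times the higher control. The group means were 2.46 ± 0.217 and 6.54 ± 0.946 RPKM (SD, n = 2 each), a ratio of 2.66 (log2 change 1.25, SE 0.107, limma adjusted p = 7.72e-06), and 2.46% of all genes tested rose at least as far. Phf1 kept its direction and its call in all 15 alternatives, with log2 changes from 1.11 to 1.42. Even this low gene corresponded to roughly 979 to 2752 units per library, using the estimated depths and GENCODE exon lengths, for an estimated counting error of at most 3.20%.

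Part of the Phf1 locus is shared with another gene. Cuta, on the opposite strand, overlaps 1370 of its 3486 exonic bases (39.3%) in GENCODE M21. Cuta is far more abundant, at 89.5 and 82.4 RPKM in control and 135 and 134 RPKM in Hnrnpk siRNA libraries, and it rose as well (log2 change 0.64, SE 0.0658, limma adjusted p = 2.27e-05). The ratio of the group means was 1.56 for Cuta and 2.66 for Phf1. Strand and the counting of shared bases are not stated in the sources used, and the part of Cuta reads in the Phf1 values was not tested.

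Phf19 (ENSMUSG00000026873; chromosome 2, 34893757 to 34914026, minus strand) moved opposite to Phf1. It had 10.03 and 11.0 RPKM after control siRNA and 7.85 and 8.11 RPKM after Hnrnpk siRNA, with both Hnrnpk siRNA libraries below both controls. The means were 10.5 ± 0.677 and 7.98 ± 0.186 RPKM (SD, n = 2 each), which limma put at a log2 change of -0.38 ± 0.0762 (SE; adjusted p = 0.00173). This call held in all 15 alternatives, with log2 changes from -0.44 to -0.28.

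Mtf2 (ENSMUSG00000029267; chromosome 5, 108065674 to 108109004, plus strand), the dominant Polycomb-like subunit of embryonic stem cells, stayed close to its control level. It had 63.4 and 63.2 RPKM in control and 67.4 and 65.0 RPKM in Hnrnpk siRNA libraries. The Hnrnpk siRNA libraries lay just above the controls, but with a log2 change of 0.06 (SE 0.0604) and a limma adjusted p of 0.374 Mtf2 was not called, and the change was -0.07 with GC trends removed.

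The makeup of the Polycomb-like group shifted between its minor members. Phf1 made up 3.43% and 3.01% of the summed RPKM of the 3 paralogs with control siRNA, then 7.24% and 8.98% after knockdown. Phf19 went from 13.2% and 14.4% to 9.68% and 10.1%. Neither of these shares overlapped between groups, and neither did the levels of Phf1 and Phf19 themselves. Mtf2 held 80.9% to 83.4% in all 4 libraries. In control libraries Phf19 stood at 3.84 and 4.77 times the level of Phf1. After Hnrnpk siRNA that ratio was 1.34 and 1.13, and the 2 genes were then at nearly the same level.

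**Figure D2:**
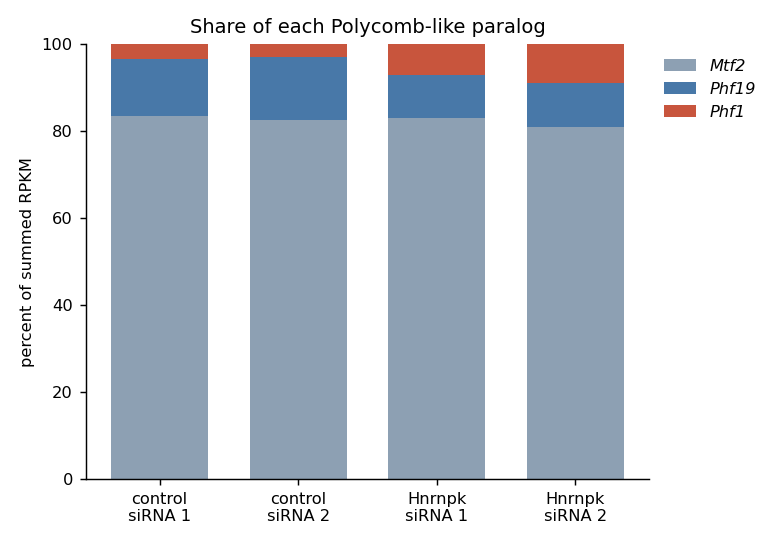
Stacked bars give the share of Mtf2, Phf19 and Phf1 in their summed RPKM, in percent, for each of the 4 libraries. The Phf1 share is 3.43% and 3.01% with control siRNA, then 7.24% and 8.98% with Hnrnpk siRNA, while Mtf2 stays between 80.9% and 83.4%.

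Of the other form of PRC2, Jarid2 was not called and its partner Aebp2 rose. Jarid2 (ENSMUSG00000038518; chromosome 13, 44729474 to 44921643, plus strand), a catalytically inactive Jumonji protein that helps PRC2 bind chromatin marked by PRC1, had 59.6 and 69.1 RPKM in control and 71.6 and 68.8 RPKM in Hnrnpk siRNA libraries. Control replicate 2 lay between the Hnrnpk siRNA libraries, so the groups overlapped (log2 change 0.13, SE 0.0779, limma adjusted p = 0.168). Jarid2 was called higher without control replicate 2 (log2 change 0.24, adjusted p = 0.0185) and with length trends removed (0.21, adjusted p = 0.0367); without control replicate 1 its log2 change was 0.02. Aebp2, a zinc finger subunit outside the 10, had 17.3 and 17.2 RPKM in control and 27.3 and 26.9 RPKM in Hnrnpk siRNA libraries (log2 change 0.64, SE 0.0626, limma adjusted p = 1.81e-05). Jarid2 was 3.44 and 4.02 times as high as Aebp2 in control libraries and 2.62 and 2.56 times as high after Hnrnpk siRNA.

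The remaining accessory genes on the list were Epop, Lcor, Ezhip, Elob and Eloc. With Aebp2, 4 of these 6 rose and none fell, with a median log2 change of 0.45. Among all genes tested, 32.2% were called higher and 67.2% in either direction, and a list of 6 genes is small. Epop, listed as E130012A19Rik, which links the Polycomb-like form of PRC2 to the elongin proteins, had 447 and 514 RPKM in control and 533 and 554 RPKM in Hnrnpk siRNA libraries. Its log2 change of 0.18 (limma adjusted p = 0.0812) was not called. Epop was called higher with GC trends removed (0.53, adjusted p = 0.00106), with a replicate block (0.18, adjusted p = 0.0248) and when control replicate 2 was left out (0.28, adjusted p = 0.0235), and its log2 change was 0.08 when control replicate 1 was left out. The elongin partners of EPOP both rose: Eloc, listed as Tceb1, from 121 ± 10.7 to 191 ± 2.54 RPKM (log2 change 0.66, adjusted p = 3.92e-05), and Elob, listed as Tceb2, from 521 ± 1.77 to 625 ± 31.8 RPKM (SD, 2 libraries each; log2 change 0.26, adjusted p = 0.0103). Elob was not called after quantile normalization (0.08, adjusted p = 0.199), nor with Hnrnpk siRNA replicate 2 left out (0.21, adjusted p = 0.0549), nor with no filter on low values (0.26, adjusted p = 0.103).

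Ezhip, listed as AU022751, encodes an inhibitor that mimics the K27M form of histone H3. It had 2.58 and 2.14 RPKM in control and 4.35 and 3.88 RPKM in Hnrnpk siRNA libraries, where both libraries were higher (log2 change 0.69, SE 0.102, limma adjusted p = 2.37e-04). Lcor, whose locus also encodes the PRC2 subunit PALI1, had 1.38 ± 0.0186 and 1.34 ± 0.0972 RPKM (SD, n = 2 each) and was not called (log2 change -0.04, adjusted p = 0.733).

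**Figure D3:**
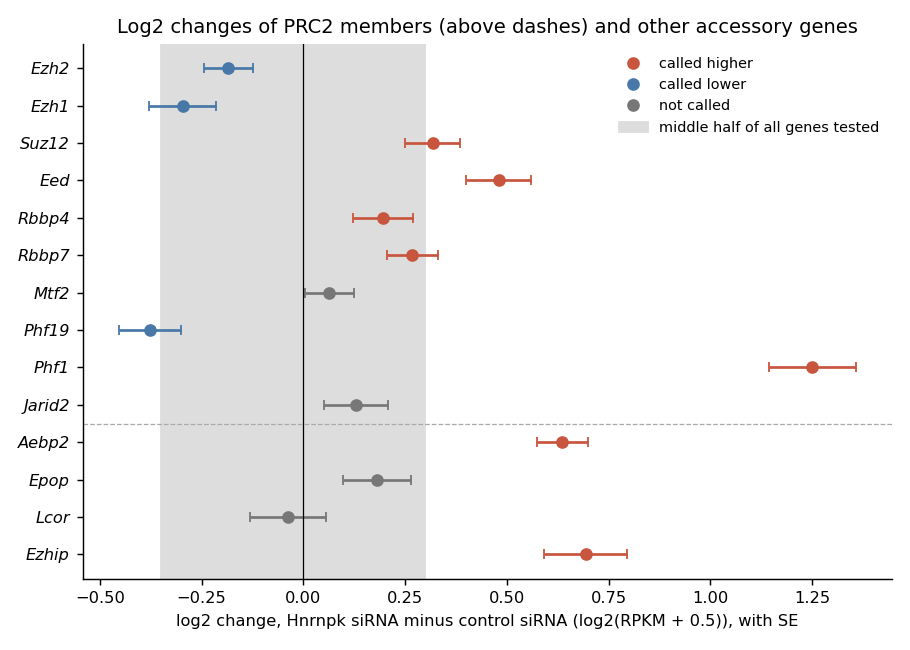
Log2 change (Hnrnpk siRNA minus control siRNA, on the log2(RPKM + 0.5) scale) with SE for the 10 members and for Aebp2, Epop, Lcor and Ezhip; the grey band spans the quartiles of all genes tested, from -0.35 to 0.30. Phf1 stands farthest out at 1.25, followed by Ezhip at 0.69 and Aebp2 at 0.64, while Ezh2 and Ezh1 lie inside the band.

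The enzymes that remove the PRC2 mark were mixed. Kdm6a (UTX), an H3K27 demethylase, had 13.5 and 13.4 RPKM in control and 18.6 and 17.1 RPKM in Hnrnpk siRNA libraries (log2 change 0.39, SE 0.0703, limma adjusted p = 7.81e-04). Kdm6b (JMJD3) had 19.3 ± 0.356 and 17.8 ± 1.32 RPKM (SD, n = 2 each) and was not called (log2 change -0.11, adjusted p = 0.193; -0.19 without Hnrnpk siRNA replicate 1 and -0.04 without replicate 2). The Y-linked homolog Uty was below the filter, at 0.329 to 0.460 RPKM. The line is labelled female, but this Y-linked gene had reads in every library. The sex of the cells and the source of these reads were not tested.

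PRC1, the complex that ubiquitinates histone H2A and acts beside PRC2, had 22 genes on the list. Of these, 6 rose, 4 fell and 12 were not called (median log2 change 0.04). Among the 21 with both group means at 0.5 RPKM or more, 5 rose and 4 fell. Over all genes tested, 32.2% were called higher and 35.0% lower. Subunits of the canonical complex changed unequally. Phc1, the Polyhomeotic subunit and the most abundant gene of the list, had 351 and 347 RPKM in control and 195 and 186 RPKM in Hnrnpk siRNA libraries (log2 change -0.87, SE 0.0651, limma adjusted p = 3.35e-06). Cbx7, the main H3K27me3-reading chromodomain subunit of embryonic stem cells, fell from 59.3 ± 1.15 to 42.3 ± 1.07 RPKM (log2 change -0.48), and Cbx6 from 10.2 ± 0.211 to 7.37 ± 0.0703 RPKM (SD, 2 libraries each; log2 change -0.45). Rises included scarce transcripts. Bmi1, a ring finger subunit also called Pcgf4, rose from 0.899 ± 0.0854 to 2.76 ± 0.0341 RPKM (log2 change 1.22) and Cbx8 from 0.337 ± 0.0148 to 1.01 ± 0.00424 RPKM (SD, 2 libraries each; log2 change 0.85). Cbx8 was tested only because of its level after Hnrnpk siRNA. The summed RPKM of the 22 genes was 726 and 715 in control and 575 and 564 in Hnrnpk siRNA libraries. The fall of Phc1 alone was at least as large as the fall of this sum. For the 10 PRC2 members the sum was 622 and 643, then 744 and 749. Over all genes it was 359659 and 362836 in control and 377825 and 390467 in Hnrnpk siRNA libraries.

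The COMPASS enzymes, which methylate H3K4 and oppose Polycomb silencing, were mostly not called. Of 11 genes, 2 rose, 1 fell and 8 were not called (median log2 change -0.01), whereas 67.2% of all genes tested were called. Setd1b rose from 9.74 ± 1.47 to 17.4 ± 1.23 RPKM (log2 change 0.81) and Ash2l, a shared core subunit, from 120.3 ± 1.30 to 178 ± 7.06 RPKM (SD, 2 libraries each; log2 change 0.56). Kmt2c, listed as Mll3, had a log2 change of -0.23 (limma adjusted p = 0.0339), and this call was lost in 4 alternatives, with an adjusted p of 0.324 when Hnrnpk siRNA replicate 2 was left out.

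Lineage regulators known as Polycomb targets in embryonic stem cells were read as a group. Of 57 found in the table, 29 were under the filter and 4 of the 28 tested had a control mean below it, so those 4 were tested only because they were higher after Hnrnpk siRNA. Among the 24 with both group means at 0.5 RPKM or more, 14 rose, 8 fell and 2 were not called. Of all genes tested, 32.2% were called higher and 35.0% lower. The largest rises were Nkx2-9 (log2 change 3.72), Gata6 (3.66) and Gata3 (2.43), regulators of ventral neural tube, primitive endoderm and trophectoderm. Gata6 had 0.721 and 0.565 RPKM in control and 13.7 and 14.1 RPKM in Hnrnpk siRNA libraries. The largest falls were Olig1 (-1.33) and Olig2 (-1.31), regulators of oligodendrocyte and motor neuron development. Olig2 had 15.6 and 16.5 RPKM in control and 6.30 and 6.07 RPKM in Hnrnpk siRNA libraries. The highest value of the list was in control replicate 1, where Olig1 had 25.7 RPKM. After Hnrnpk siRNA no gene of the list exceeded 21.0 RPKM. H3K27 methylation was not measured, and the part of the PRC2 transcripts in these changes was not tested.

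**Figure D4:**
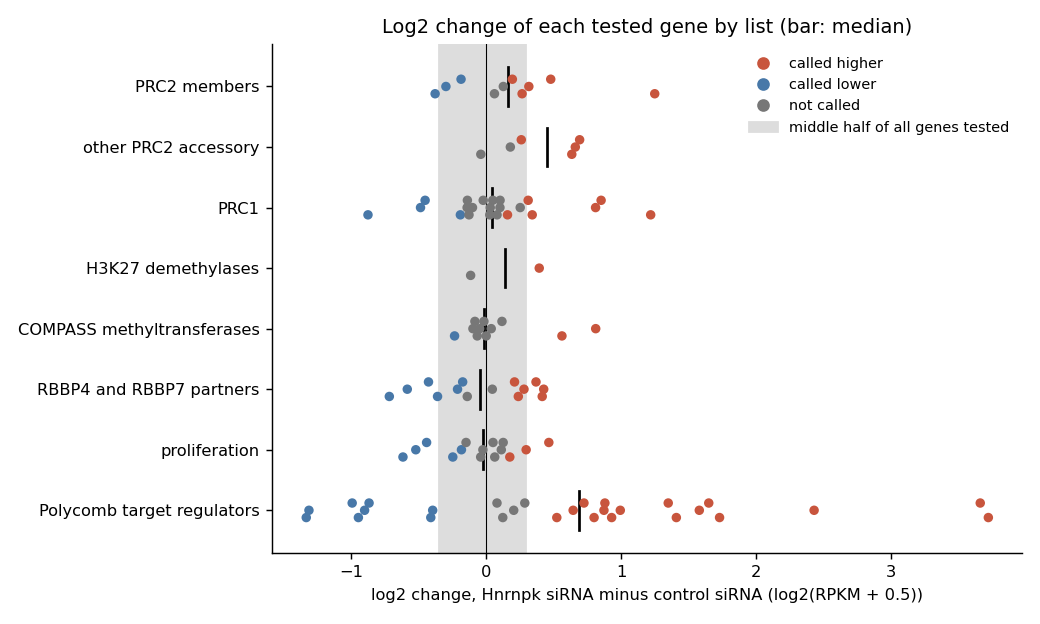
Log2 change of each tested gene (points, coloured by call) in the PRC2 members and 7 related lists, with the list median as a bar and the quartiles of all genes tested, -0.35 to 0.30, in grey. The Polycomb target regulators spread from -1.33 to 3.72, while the PRC2 members other than Phf1 stay between -0.38 and 0.48.

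Transcription of the PRC2 core is known to follow the cell cycle through E2F factors, so cell cycle genes were set beside it. Of 15 proliferation genes, 3 rose, 5 fell and 7 were not called (median log2 change -0.02). The shares over all genes tested were 32.2% higher and 35.0% lower. E2f1 itself fell from 16.5 ± 0.884 to 10.6 ± 0.734 RPKM (log2 change -0.61), Mcm6 of the replicative helicase from 242 ± 0.624 to 168 ± 0.0742 RPKM (log2 change -0.52) and Mki67 from 51.9 ± 1.31 to 38.3 ± 3.81 RPKM (SD, 2 libraries each; log2 change -0.44). The mitotic genes Birc5, Ccnb1 and Cdk1 rose, with log2 changes of 0.47, 0.30 and 0.18, and the Cdk1 call was lost in 6 of 15 alternatives. The part of the cell cycle in the changes of Ezh2, Suz12 or Eed was not tested. Among the pluripotency factors, Sox2 fell (log2 change -0.53) and Nanog rose (log2 change 0.82). Pou5f1 was not called (log2 change -0.15, limma adjusted p = 0.137), but was called lower when Hnrnpk siRNA replicate 2 was left out (-0.26, adjusted p = 0.0188) and after quantile normalization (-0.23, adjusted p = 0.0109), and its log2 change was -0.04 when Hnrnpk siRNA replicate 1 was left out.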

How the data were processed

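Gene expression was deposited by the authors as RPKM per gene and library, with 1 column for each of the 4 libraries. BWA, SAMtools and the build mm9 are named in the submitters' processing notes; the counting tool, the annotation and the treatment of shared reads are not stated in the sources used. Positions, exon lengths and overlaps came from GENCODE M21 on GRCm38, and promoters from RefSeq (all 10 members matched). Depth was estimated from the steps between low values with GENCODE exon lengths, which need not be those the authors used; whole counts per gene were not recovered, so no count model was used.

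Values were analysed as log2(RPKM + 0.5), which understates changes of low genes. The 12486 of 22138 genes averaging 0.5 RPKM or more were tested two-sided by limma 3.58.1 (R 4.3.3; trended prior variance), with Benjamini-Hochberg adjustment. On simulated data for 12486 genes, 200 of them changed, limma called 80% of genes given a log2 change of 0.5. It called 100% of genes given one of 1, with 8 false calls of 188. The noise was drawn from the variances limma had fitted, and far fewer genes changed than were called here (67.2%). These rates therefore do not give the error rate in the data. Similarity between transcripts was searched with BLAST 2.17.0 at 95% identity over at least 100 bases.

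The members and lists were chosen with earlier results of these data known. Named genes are all 10 members, the other accessory genes and demethylases, the targeted gene, Pou5f1, Nanog and Sox2, and the 3 largest called rises and 3 largest called falls, where present, of each remaining list, except for items that are not reported here; Cuta and other overlapping genes, Uty and the fibroblast genes fall outside it and were chosen with their values known. Alternatives were the added value, the filter, scaling, the trend, GC and length trends, the replicate block and leaving out each library.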

Additional observations from a re-analysis of the deposited data

How the results depend on the processing

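Phf1, Suz12 and Phf19 kept their direction and call in all 15 alternatives. Of the 8 members called, 5 were called with no filter on low values, where 34.1% of all genes were called. Leaving out 1 library lost calls every time. Rbbp4 was lost without control replicate 1, and Ezh2 without control replicate 2, where Jarid2 was gained. Ezh2 was also lost without Hnrnpk siRNA replicate 1, and Ezh1, Ezh2 and Rbbp4 without Hnrnpk siRNA replicate 2. Members called higher numbered 5, and 3 with no filter, 3 under quantile normalization and 4 to 6 without 1 library. Members called lower numbered 3, and 1 to 3 without 1 library, the lowest without Hnrnpk siRNA replicate 2. Mtf2 changed sign with GC trends removed (-0.07), as did Kdm6b (0.09); Lcor did so under quantile normalization (0.07), with length trends removed (0.03) and without Hnrnpk siRNA replicate 2, with leave-one-out values from -0.09 to 0.02. None of these was called, and the cause was not tested. The count of all genes called lay between 6809 and 8622. Of the 39 other named genes tested, 30 kept their call and direction throughout. With no filter on low values, 27 Polycomb target regulators were called higher and 6 lower, against 16 and 8 with it; the 16 include genes that passed the filter only through their level after Hnrnpk siRNA, and 14 had both group means at the minimum. The labels number the replicates 1 and 2 in both groups without saying that a number marks a shared batch; same-numbered libraries deviated together with a correlation of 0.0267 across genes, and a replicate block called 8622 genes and 8 members. Counting error, at the estimated depths, was at most 3.20% for any member; the effects of shared reads and of the unstated counting method on the values were not tested.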
